A study of Schizosaccharomyces pombe
Saccharomyces cerevisiae with 8 samples.

Results

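The genes described here are those encoded by the mitochondrial genome of budding yeast, Saccharomyces cerevisiae. They were chosen as every gene that the deposited tables place on the chromosome named Mito, whatever its type, and there are 53 of them among 6808 genes. They comprise 8 major mRNAs, 10 reading frames that lie in introns, 9 other reading frames, the 15S and 21S rRNAs, the RNA subunit of mitochondrial RNase P (Q0285) and 23 tRNAs. The total RNA table lists all 53, and the newly synthesized RNA table lists 42.

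The series asked what happens to yeast RNA when Sua7 is removed, the protein known as TFIIB in other eukaryotes and a general factor for RNA polymerase II. All libraries came from strain GZY364 (MATalpha, with mutant ade2, his3, leu2, lys2, met15, trp1 and ura3), in which SUA7 is fused to 3V5-IAA7 with the kanMX6 marker and the plant receptor OsTIR1 is expressed from the GPD1 promoter at his3. Cells received 500 µM auxin (3-IAA), which targets the tagged protein for degradation, or the carrier DMSO, for 30 min, and then 5 mM 4-thiouracil for 6 min so that RNA made in that time was labelled. Libraries of total RNA and of purified labelled RNA, called newly synthesized RNA (nsRNA), were made from 2 biological replicates of each treatment, which gives 8 libraries in 4 groups of 2. The controls carry the degron and the receptor too, and no strain without the degron was included, so loss of Sua7 and an effect of auxin as such cannot be told apart. Cells of Schizosaccharomyces pombe were mixed in at 3 for every 1 S. cerevisiae cell before RNA extraction, and rRNA was depleted before library construction.

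The mitochondrial genome is transcribed inside the organelle by its own single-subunit RNA polymerase, Rpo41, together with the initiation factor Mtf1, and not by RNA polymerase II, the enzyme that works with TFIIB. Its long primary transcripts carry several genes each and are cut into mRNAs, rRNAs and tRNAs. Most of its proteins are subunits of the respiratory chain and of the ATP synthase, and the genes COX1, COB and 21S_RRNA hold introns that can themselves encode proteins for splicing or for intron mobility. The proteins that transcribe the genome and degrade its RNA are encoded in the nucleus. In bulk RNA, a change in the number of mitochondrial genomes or of cells cannot be told apart from a change in the RNA made from each genome.

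Raw counts summed over the listed S. cerevisiae genes were 9496247 and 11779971 in nsRNA under DMSO and 1291241 and 1753672 under auxin. In the total RNA libraries the sums lay between 7010247 and 10543351. These sums leave out S. pombe reads and move with the S. cerevisiae RNA itself, so they do not give the sequencing depth. A library's counts below mean this sum. Values below are scaled counts, the deposited raw count divided by the authors' 1 factor per library, unless another unit is named. The factors ran from 0.669 to 1.45, and their basis was not given in the sources used here. On this scale the median gene changed by -4.08 (log2) in nsRNA and by -2.34 in total RNA after auxin.

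The 2 tables treat genes that lie inside other genes differently. All 10 intron frames lie wholly within the interval of another listed gene, and all 10 are listed in total RNA and 0 in nsRNA. The same holds away from the mitochondrial genome, where the 8 snoRNA genes nested in another gene appear in the total RNA table and not in the nsRNA table, while the 69 others appear in both. Counts of COX1, COB and 21S_RRNA, the genes that contain the frames, may therefore not cover the same bases in both tables, which touches each comparison between nsRNA and total RNA for those 3 genes. The 36 members free of any overlap are listed in both tables, and COX2 shares only its end with Q0255, with 737 of its 756 bases its own.

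Mitochondrial RNA took up a larger part of the libraries' counts over the listed genes after auxin. The clearest view comes from COX2, COX3, ATP6, OLI1 and VAR1, 5 mRNAs that contain no other listed gene. ATP8 contains none either but is not in this set, and had 0 to 22 raw counts in the nsRNA libraries. Together the 5 mRNAs made up 0.0354% and 0.0321% of the nsRNA counts of DMSO libraries, against 0.415% and 0.308% after auxin. In total RNA they held 0.383% and 0.415% under DMSO and 0.726% and 0.752% under auxin. Auxin libraries lay above DMSO libraries in both RNA kinds, with no overlap. The widest 95% Wilson interval of these shares, that of the first auxin nsRNA library, ran from 0.404% to 0.426%, and such intervals cover counting error only. A share moves with all other RNA in the library, so it does not by itself give the amount of mitochondrial RNA.

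**Figure D1:**
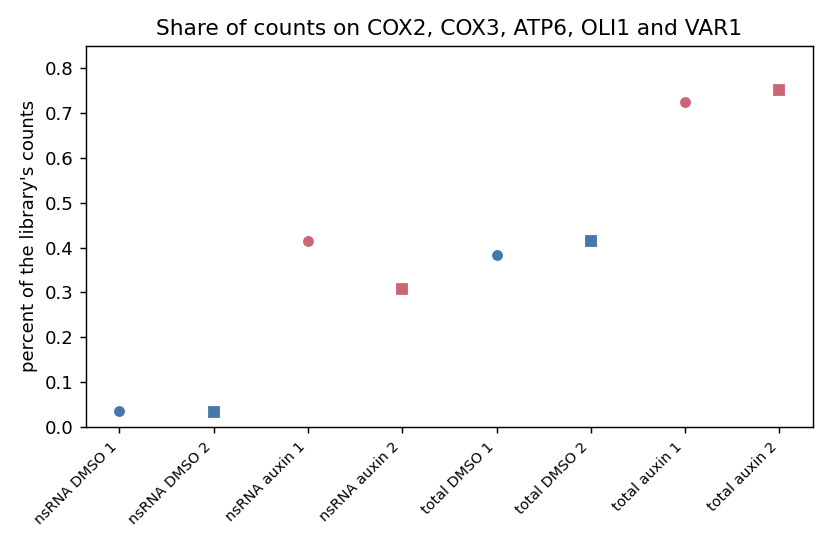
Share of each library's counts on 5 mitochondrial mRNAs, in percent (y axis), for each of the 8 libraries (x axis); blue is DMSO, red is auxin, circles are replicate 1 and squares replicate 2, and the 95% Wilson intervals are mostly smaller than the symbols. The shares in nsRNA go from 0.0354% and 0.0321% under DMSO to 0.415% and 0.308% under auxin, and those in total RNA from 0.383% and 0.415% to 0.726% and 0.752%.

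On the deposited scale no difference in the summed amount could be shown with 2 libraries a group, while most nuclear genes fell. The summed scaled count of the members was 7494 ± 301 (SD, n = 2) in DMSO nsRNA and 5815 ± 691 in auxin nsRNA, a log2 difference of -0.37 with a two-sided exact permutation p of 0.333. In total RNA the sum was 197835 ± 36411 under DMSO and 229919 ± 39160 under auxin, a log2 difference of 0.22 with an exact permutation p of 0.667. The 2 sums cover different genes, 42 members in nsRNA and 53 in total RNA. The intron frames Q0050 and Q0055, not listed in nsRNA, held 112358 of the 172089 scaled counts in total RNA of DMSO replicate 1. With 2 libraries against 2 the smallest possible p is 0.333. The nsRNA sum changed direction with the scale: relative to SCR1, the abundant RNA of the signal recognition particle, its log2 difference was 0.19.

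In newly synthesized RNA, the members that could be tested, 7 of the 8 mRNAs and 1 of the 2 rRNAs among them, did not share the size of the general fall. Of the 13 members with enough counts to be tested, 2 were lower after auxin and 0 higher by the edgeR quasi-likelihood test at an adjusted p under 0.05, while 97.6% of all 5800 tested genes were lower and 1.31% higher. The median of the 13 was -0.15 on the log2 scale against -4.08 for all tested genes, and all 13 lay above the median of all genes. The range was -0.89 to 0.66. Relative to the typical gene (TMM scaling, which sets the median of all tested genes near 0, at -0.07), the directions flip: all 19 members then tested were higher, with a median of 4.21, against 27.4% higher and 29.5% lower of 5833 genes. More members were tested because the filter works on counts per effective library size, which the scaling changes.

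Among the mRNAs of cytochrome c oxidase, COX2, which encodes subunit II, had 2054 and 2451 scaled counts in DMSO nsRNA and 1716 and 1572 under auxin. COX3, which encodes subunit III, had 1574 and 1578 under DMSO and 1173 and 991 under auxin. Both were lower in each auxin library than in each DMSO library, yet neither passed the main test: the log2 change was -0.45 ± 0.33 (SE, adjusted p = 0.174) for COX2 and -0.54 ± 0.33 (adjusted p = 0.101) for COX3. COX3 passed with DESeq2 (adjusted p = 0.0302), in the edgeR fit of all 8 libraries (0.0350) and with the replicate block (5.13e-04), and COX2 with the block alone (0.00839), while TMM scaling turned both upward. Groups of 4 of the 13 members did not overlap in the lower direction and 0 in the higher, against 97.8% and 1.52% of all tested genes. COX1, which encodes subunit I, had 1620 and 1221 under DMSO and 979 and 1487 under auxin, so that its groups overlapped, with a log2 change of -0.20 ± 0.33.

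Of the ATP synthase genes, OLI1, which encodes the membrane ring subunit of the ATP synthase, had 767 and 722 scaled counts in DMSO nsRNA and 402 and 547 under auxin. It fell to 63.7% of its DMSO level, a log2 change of -0.65 ± 0.32 with an adjusted p of 0.0397, while relative to the typical gene (TMM) it was higher by 3.34. That call is lost when any of 3 libraries is left out, with adjusted p of 0.290 and 0.247 without DMSO replicates 1 and 2 and 0.268 without auxin replicate 1. ATP6, which encodes another membrane subunit, had 584 and 482 under DMSO and 404 and 562 under auxin, with overlapping groups and a log2 change of -0.14 ± 0.31. ATP8, the third ATP synthase subunit gene, was almost absent from nsRNA, with raw counts of 0 and 1 under DMSO and 5 and 22 under auxin, and did not pass the filter on low counts. It was called higher where the filter let it in: without a filter (adjusted p = 0.00172), in the fit of all 8 libraries (6.31e-04), and when any of 3 libraries was left out. Without auxin replicate 2 it was not tested. A count of 0 in the first DMSO library allows up to 3 counts, and most of the nsRNA counts came from the second auxin library.

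Of the other mRNAs, COB, which encodes cytochrome b, had 490 and 365 scaled counts in DMSO nsRNA and 277 and 467 under auxin, with a log2 change of -0.20 ± 0.31. VAR1, which encodes the one ribosomal protein made in yeast mitochondria, was low and uneven, at 46.3 and 13.9 under DMSO and 17.3 and 56.0 under auxin, with a log2 change of 0.30 ± 0.38. Neither passed the test, and the groups overlapped for both.

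The large rRNA showed the lowest change of the members tested in nsRNA. 21S_RRNA had 232 and 222 scaled counts in DMSO and 144 and 100 under auxin. It fell to 53.9% of the DMSO level, a log2 change of -0.89 ± 0.31 with an adjusted p of 0.00371, while relative to the typical gene (TMM) it was higher by 3.12. Without auxin replicate 2 the log2 change was -0.65 and the adjusted p 0.114. Because the libraries were depleted of rRNA, the rRNA values describe what remained after depletion. The small rRNA, 15S_RRNA, had raw nsRNA counts of 1 and 2 under DMSO and 2 and 8 under auxin, too few to test, and Q0285, the RNase P RNA, had 1 and 0 under DMSO and 0 and 2 under auxin.

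Few tRNAs were seen in nsRNA. Of the 23, 15 had a 0 in at least 1 DMSO library, and only tP(UGG)Q and tS(UGA)Q2 were tested. The serine tRNA tS(UGA)Q2 had raw counts of 22 and 9 under DMSO and 21 and 82 under auxin, with a log2 change of 0.66 ± 0.40 (adjusted p = 0.0988). The proline tRNA tP(UGG)Q had 23 and 5 under DMSO and 10 and 43 under auxin, with a log2 change of -0.15 ± 0.43. Of the other frames, Q0255, a maturase-like frame downstream of COX2, had raw counts of 92 and 89 under DMSO and 154 and 290 under auxin, and a log2 change of 0.24 ± 0.31.

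Replicates of the nsRNA groups differed in the makeup of their mitochondrial RNA. The raw count of COX1 per COX2 count was 0.789 and 0.498 under DMSO and 0.571 and 0.946 under auxin. ATP6 per COX2 was 0.285 and 0.197 under DMSO and 0.236 and 0.357 under auxin, and COB per COX2 was 0.239 and 0.149 under DMSO and 0.161 and 0.297 under auxin. DMSO replicate 1 and auxin replicate 2 were the higher library of their group in all 3 ratios. The same 2 libraries held the larger counts of tRNA, 75 against 33 under DMSO and 280 against 73 under auxin. COX3 per COX2 ranged only from 0.630 to 0.766. In total RNA the COX1 per COX2 ratio was 0.325 and 0.321 under DMSO and 0.382 and 0.370 under auxin.

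**Figure D2:**
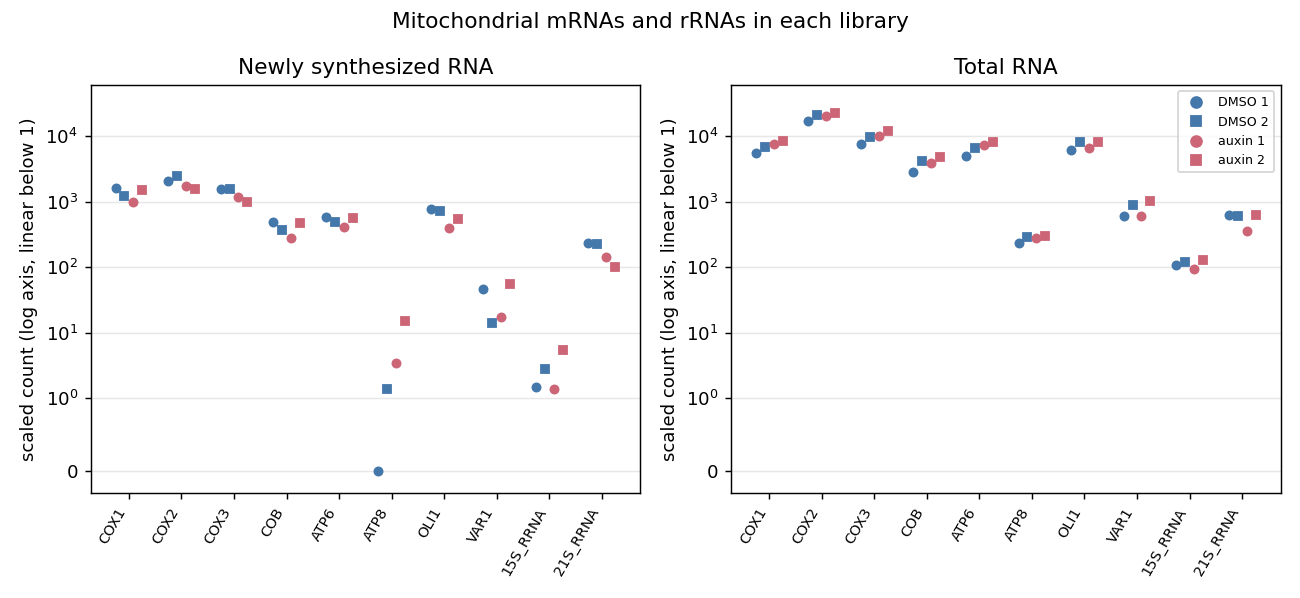
Scaled counts (y axis, a log axis that is linear below 1) of the 8 mRNAs and the rRNAs in nsRNA (left) and total RNA (right), 1 point per library; blue is DMSO, red is auxin, circles are replicate 1 and squares replicate 2. OLI1, 21S_RRNA, COX2 and COX3 lie lower in both auxin nsRNA libraries than in both DMSO ones, and ATP8 and 15S_RRNA lie between 0 and 15.2 in nsRNA but above 90 in every total RNA library.

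In total RNA, a few members rose and most passed the test in neither direction. Of 41 members tested, 0 were lower and 6 higher by the edgeR test, against 90.3% lower and 1.44% higher among all 5479 tested genes. The median of the 41 was 0.32 on the log2 scale against -2.34 for all tested genes, the range was -0.39 to 1.27, and all 41 lay above the median of all genes. By class the median was 0.24 for the 8 mRNAs, 0.26 for the 10 intron frames and 0.37 for the 17 tested tRNAs. With TMM scaling, all 45 members then tested were higher, against 33.4% higher and 42% lower of 5489 genes.

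The 6 that rose were 4 tRNAs and 2 frames. The phenylalanine tRNA tF(GAA)Q had raw counts of 16 and 31 under DMSO and 62 and 73 under auxin, or 18.2 and 32.6 scaled counts against 53.8 and 69.9. Its log2 change was 1.27 ± 0.32 with an adjusted p of 1.01e-04. It kept its call under every alternative that tested it, with adjusted p from 3.38e-11 to 0.0216, though a filter at a mean count of 50 removed it from the test. The asparagine tRNA tN(GUU)Q rose by 1.08 ± 0.39 (adjusted p = 0.00649), but auxin replicate 2 had 52 raw counts against 10 to 21 in the other libraries, and without it the log2 change was 0.21 with an adjusted p of 0.720. The proline tRNA tP(UGG)Q rose by 0.64 ± 0.26 (adjusted p = 0.0132) and the glutamate tRNA tE(UUC)Q by 0.59 ± 0.28 (adjusted p = 0.0398).

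Both frames that rose were low or of unclear function. Q0032, annotated as a dubious frame, had raw counts of 7 and 19 under DMSO and 26 and 37 under auxin, with a log2 change of 1.02 ± 0.41 (adjusted p = 0.0144). Its DMSO libraries alone would not have passed the filter. It entered the test through the auxin libraries, where it was high, so its call carries no weight. Q0255 had 732 and 1017 under DMSO and 1361 and 1632 under auxin, with a log2 change of 0.53 ± 0.26 (adjusted p = 0.0418). Apart from the phenylalanine tRNA, each of the 6 lost its call when total DMSO replicate 1 or total auxin replicate 2 was left out. With DESeq2 the adjusted p was 0.157 for Q0032, 0.172 for tE(UUC)Q, 0.124 for tN(GUU)Q and 0.0748 for tP(UGG)Q, so that only Q0255 and tF(GAA)Q of the 6 kept their call. Q0255 lost its call without any 1 of the 4 libraries, with 0.102 without DMSO replicate 2 and 0.0682 without auxin replicate 1. The adjusted p without DMSO replicate 1 was 0.322 for Q0032, 0.404 for Q0255, 0.289 for tE(UUC)Q, 0.143 for tN(GUU)Q and 0.263 for tP(UGG)Q. Without auxin replicate 2 it was 0.222 for Q0032, 0.428 for Q0255, 0.205 for tE(UUC)Q and 0.186 for tP(UGG)Q. Leaving out that auxin library also called 21S_RRNA lower, at a log2 change of -0.80.

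No mRNA passed the test in total RNA. COX1 had 5450 and 6739 scaled counts in DMSO and 7578 and 8332 under auxin, a log2 change of 0.38 ± 0.24 (adjusted p = 0.118). ATP6 had 4989 and 6526 under DMSO and 7304 and 8168 under auxin, a log2 change of 0.43 ± 0.24 (adjusted p = 0.0836). COX3 had 7424 and 9704 under DMSO and 9924 and 11943 under auxin, a log2 change of 0.35 ± 0.24 (adjusted p = 0.145). For these 3 the auxin libraries were all above the DMSO libraries, which held for 10 of the 41 tested members, against 1.79% of all tested genes.

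The other mRNAs overlapped between treatments. COX2 had 16764 and 20978 scaled counts in DMSO and 19825 and 22512 under auxin, a log2 change of 0.17 ± 0.23. COB had 2835 and 4097 under DMSO and 3940 and 4728 under auxin, a log2 change of 0.32 ± 0.25. OLI1 had 6133 and 7987 under DMSO and 6504 and 8090 under auxin, a log2 change of 0.05 ± 0.24. The spread between replicates was as wide as these changes. VAR1, with 604 to 1028 over the 4 libraries, changed by 0.13 ± 0.25, and ATP8, with 233 to 295, changed by 0.12 ± 0.25.

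The rRNAs were low in this rRNA-depleted material. 21S_RRNA had 628 and 604 scaled counts in DMSO and 355 and 621 under auxin, a log2 change of -0.34 ± 0.25 (adjusted p = 0.183), and 15S_RRNA had 109 and 118 under DMSO and 93.7 and 128 under auxin, a log2 change of -0.03 ± 0.25. Per kb of transcript the DMSO means were 187 for 21S_RRNA and 68.7 for 15S_RRNA, below all 8 mRNAs, whose means per kb ran from 617 to 30561. The RNase P RNA Q0285 had raw counts of 8 and 6 under DMSO and 7 and 14 under auxin and was not tested.

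**Figure D3:**
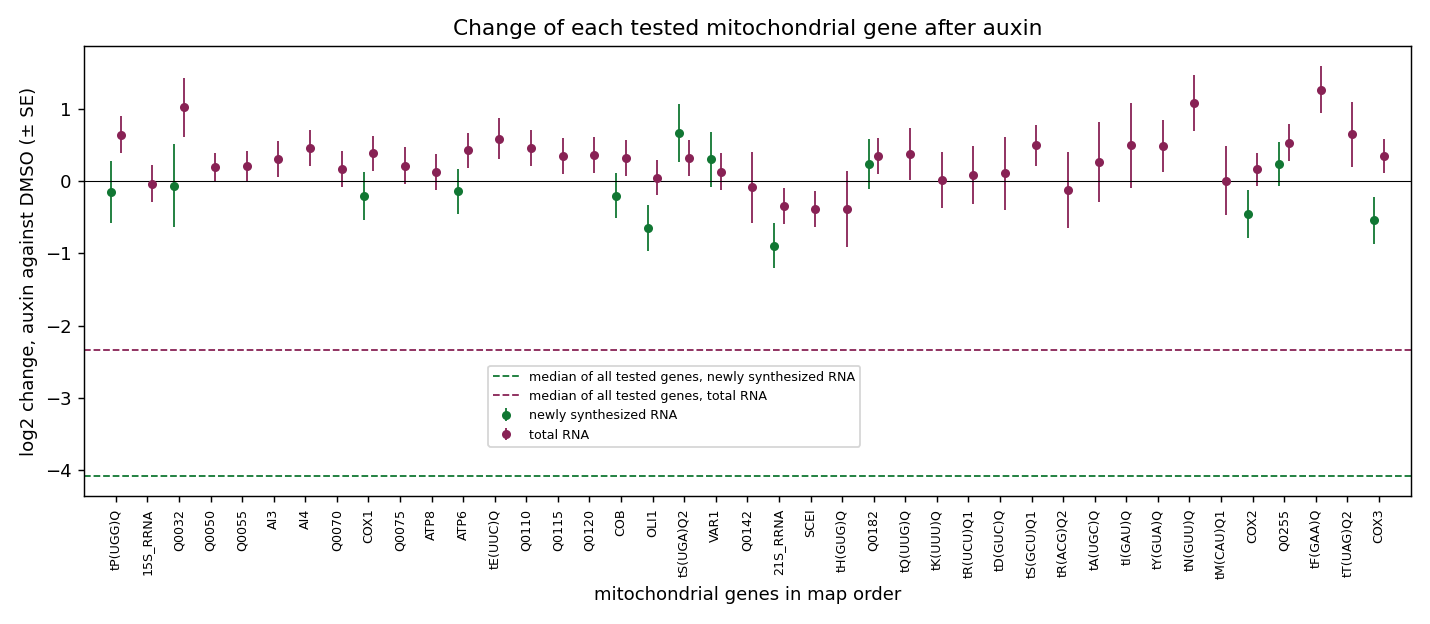
Log2 change of scaled counts, auxin against DMSO (y axis), for each tested mitochondrial gene in map order (x axis), in nsRNA (green) and total RNA (purple); bars are ± 1 SE taken from the test statistic. Dashed lines mark the median of all tested genes, -4.08 in nsRNA and -2.34 in total RNA, and every mitochondrial gene tested lies above its line.

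Intron frames carried most of the mitochondrial counts in total RNA. The frames Q0050 and Q0055, reverse transcriptases of group II introns of COX1 that are required for splicing of its pre-mRNA, together held 1.20% and 1.32% of all total RNA counts in DMSO and 2.11% and 2.44% under auxin. All members together held 1.83% and 2.02% under DMSO and 3.32% and 3.75% under auxin. Q0050 spans positions 13818 to 16322 of the Mito chromosome (sacCer3), Q0055 spans 13818 to 18830, and COX1 spans 13818 to 26701, so that reads from their common start cannot be assigned to 1 of them.

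Per kb of transcript, Q0050 stood 7.12 and 7.51 times as high as COX1 under DMSO and 5.82 and 6.94 times in auxin. Q0055 stood 5.95 and 6.26 times as high as COX1 under DMSO and 4.92 and 5.84 times in auxin. The ratio of Q0050 to Q0055 was between 1.18 and 1.20 in all 4 libraries. The frames in the following COX1 introns were lower than COX1 itself. AI3, the endonuclease I-SceIII, stood at 0.486 to 0.573 times COX1 per kb, and AI4, the endonuclease I-SceII, at 0.338 to 0.407 times. Q0070, the endonuclease I-SceIV, stood at 0.0614 to 0.0946 times and Q0075, of unknown function, at 0.330 to 0.443 times. Of the 6 frames in COX1, Q0050 and Q0055 exceeded it and the other 4 did not.

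The introns of COB encode maturases, which help to splice the intron that holds them. Per kb, Q0110 stood at 0.631 to 0.767 times COB, Q0120 at 0.396 to 0.465 times and Q0115 at 0.0507 to 0.0704 times. In each of the 4 libraries the order was Q0110, Q0120, Q0115. The highest ratio of each of the 3 was in auxin replicate 2 and the lowest in auxin replicate 1, so the auxin range enclosed the DMSO range.

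SCEI, the homing endonuclease I-SceI encoded in the intron of 21S_RRNA at positions 61022 to 61729, lay on the other side of 0 from the other intron frames. It had 2217 and 2795 scaled counts in DMSO and 1689 and 2141 under auxin, a log2 change of -0.39 ± 0.25 (adjusted p = 0.133), and its groups did not overlap. Only SCEI and the histidine tRNA tH(GUG)Q, which had 9 to 14 raw counts, were lower in both auxin libraries, 2 of 41 members against 93.9% of all tested genes. Per kb SCEI stood 16.4 and 21.5 times as high as the exons of 21S_RRNA in DMSO and 22.2 and 16.1 times in auxin, in material from which rRNA had been depleted. The other 9 intron frames had log2 changes above 0, up to 0.46 ± 0.25 for AI4 and 0.46 ± 0.25 for Q0110, and none passed the test.

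**Figure D4:**
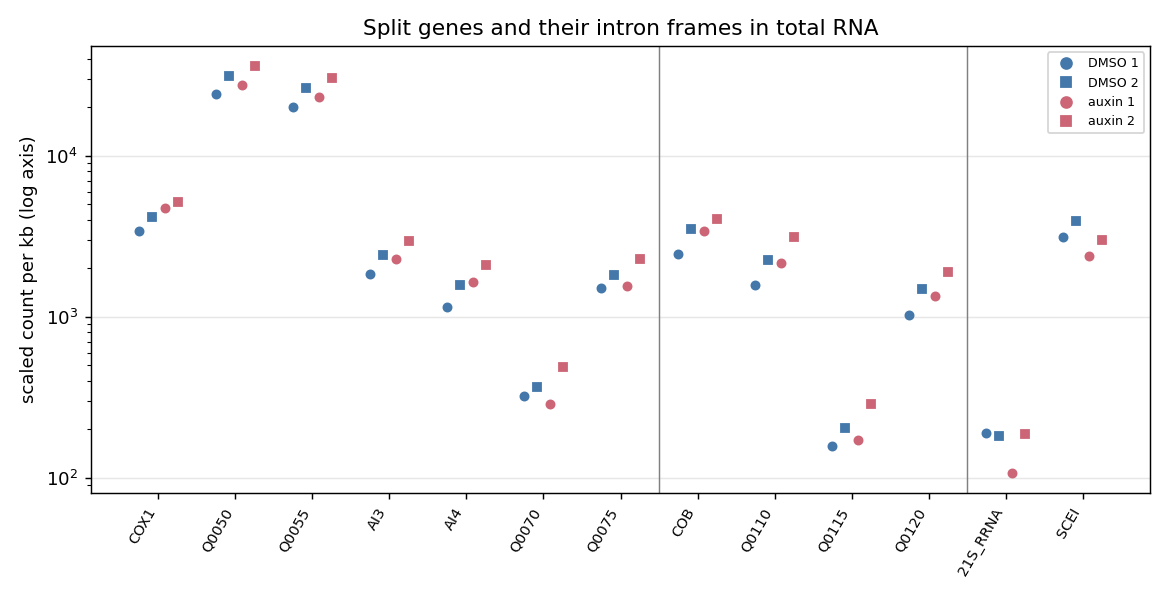
Scaled counts per kb of transcript in total RNA (y axis, log axis) for COX1, COB and 21S_RRNA and the frames in their introns (x axis, vertical lines between the split genes), 1 point per library; blue is DMSO, red is auxin, circles are replicate 1 and squares replicate 2. Q0050 and Q0055 lie above COX1 in every library, at 4.92 to 7.51 times its level, and SCEI lies above 21S_RRNA at 16.1 to 22.2 times.

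Ratios within a library need no scaling factor, and were taken after the values above had been seen. Relative to COX2, the mRNA with the highest count, 10 of the 23 other members with a mean total RNA count of at least 100 were higher in both auxin libraries, 3 were lower in both and 10 overlapped. Among all 3948 genes at that level 0.608% were higher and 98.4% lower. ATP6 per COX2 count went from 0.298 and 0.311 under DMSO to 0.368 and 0.363 under auxin, and COX3 per COX2 from 0.443 and 0.463 to 0.501 and 0.531. SCEI per COX2 went from 0.132 and 0.133 to 0.0852 and 0.0951, a separation wider than the spread within either group. OLI1 per COX2 went from 0.366 and 0.381 to 0.328 and 0.359, and 21S_RRNA per COX2 from 0.0375 and 0.0288 to 0.0179 and 0.0276.

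In nsRNA the same comparison covered 7 members. Relative to COX2, 1 of them, 21S_RRNA, was lower in both auxin libraries and 0 were higher, against 99.6% lower and 0.145% higher of 4821 genes. The ATP synthase mRNAs can be set against each other in both RNA kinds. Per kb, OLI1 stood 4.43 and 5.06 times as high as ATP6 in DMSO nsRNA and 3.35 and 3.29 times in auxin nsRNA. It stood 4.15 and 4.13 times in DMSO total RNA and 3.01 and 3.34 times in auxin total RNA. In both RNA kinds the auxin libraries lay below the DMSO libraries, a separation for which no share over other pairs or genes was taken. Relative to COX2, OLI1 and ATP6 each overlapped between treatments in nsRNA. These ratios have no test of their own.

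Whether the change in nsRNA differed from that in total RNA was tested by the interaction of RNA kind and treatment. Among the 31 members tested, 1 fell more in nsRNA than in total RNA and 1 rose more, against 78.7% and 0.0172% of 5825 tested genes. Only 13 members passed the filter in nsRNA alone, so others of the 31 entered through their total RNA counts. COX3 was the one that fell more, with a difference of -0.89 ± 0.36 on the log2 scale (adjusted p = 0.0183). With TMM scaling the direction reversed, to 0.98 (adjusted p = 6.04e-05). The call is lost without any 1 of 4 libraries, at adjusted p from 0.0597 to 0.145. ATP8 was the one that rose more. It did not pass the filter in nsRNA alone and entered here through its total RNA counts, so its call carries no weight. Its fitted difference was 3.37 ± 1.08 (adjusted p = 0.00307), which rests on the few nsRNA counts given above. Without nsRNA auxin replicate 2 it was 1.96 with an adjusted p of 0.183.

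The differences for the other mRNAs were mostly below 0 and did not pass. They were -0.70 ± 0.37 for OLI1 (adjusted p = 0.0706), -0.62 ± 0.35 for COX2 (adjusted p = 0.0927) and -0.57 ± 0.37 for ATP6 (adjusted p = 0.143). For COX1, COB and 21S_RRNA, whose bases may be counted differently in the 2 tables, they were -0.59 ± 0.36, -0.52 ± 0.38 and -0.55 ± 0.38. VAR1 differed by 0.17 ± 0.46. For all 5825 tested genes the median was -1.65.

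Mitochondrial RNA made a smaller part of nsRNA than of total RNA. Relative to the typical gene (TMM scaling, edgeR), the 13 members with at least 10 counts over both DMSO nsRNA libraries were all lower in nsRNA than in total RNA, with a median log2 difference of -4.49 against 0.03 for all 5614 tested genes, of which 39% were lower and 40.4% higher. In auxin the 24 members with at least 10 nsRNA counts were all lower, with a median of -3.01 against 0.05 for all 5341 tested genes, of which 36.5% were lower and 35.2% higher. A further 16 members in DMSO and 7 in auxin had fewer nsRNA counts and entered through their total RNA counts. Their lower calls carry no weight. The limit of 10 is a sum, while the filter asks for enough counts in each of 2 libraries. Some of the 13 and 24 therefore also entered through total RNA. Examples are Q0032 in DMSO (10 and 1 nsRNA counts) and, in auxin, 15S_RRNA (2 and 8) and tF(GAA)Q (1 and 10). Such lower calls carry no weight either, and how many there are was not counted. COX1, COX2, COX3, COB, ATP6 and OLI1 had at least 263 counts in each nsRNA library. In the interaction fitted with TMM scaling, 18 of 35 members rose more in nsRNA relative to the typical gene and 0 fell more. Among 5750 genes the shares were 29.2% and 23.8%. With TMM scaling only 19 members passed the filter in nsRNA alone. Others of the 35 entered through their total RNA counts, and how many of these are among the 18 was not counted.

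The mRNAs without introns, apart from ATP8, stood in the same order in both treatments. In DMSO the log2 difference was -6.25 ± 0.15 for VAR1, -5.05 ± 0.07 for ATP6, -4.86 ± 0.07 for OLI1, -4.69 ± 0.08 for COX2 and -4.06 ± 0.07 for COX3. In auxin it was -4.47 ± 0.20 for VAR1, -4.02 ± 0.11 for ATP6, -3.95 ± 0.11 for OLI1, -3.67 ± 0.12 for COX2 and -3.31 ± 0.13 for COX3. The neighbours ATP6 and OLI1 differed by less than their errors in auxin. For the genes that hold introns, COX1, COB and 21S_RRNA, the differences were -3.71, -4.64 and -3.07 under DMSO and -2.72, -3.57 and -1.95 under auxin, with the limit on their counted bases given above.

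ATP8 and 15S_RRNA stood lowest, at counts too small for a fold in DMSO. ATP8 had 1 nsRNA count over both DMSO libraries beside 205 and 277 in total RNA, while ATP6, which lies next to it on the map, had 391 and 347 beside 4398 and 6204. Per kb, ATP8 stood at 0.247 and 0.237 times ATP6 in DMSO total RNA and 0.201 and 0.192 times in auxin total RNA, but at 0.0455 and 0.144 times in auxin nsRNA. 15S_RRNA had 3 nsRNA counts over both DMSO libraries beside 96 and 112 in total RNA. The nuclear RNAs SCR1 and RPR1, which are not made by RNA polymerase II, were also below the typical gene. SCR1 stood at -4.81 under DMSO and -3.55 under auxin, and RPR1, the nuclear RNase P RNA, at -2.60 and -1.21. What sets these ratios was not tested.

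**Figure D5:**
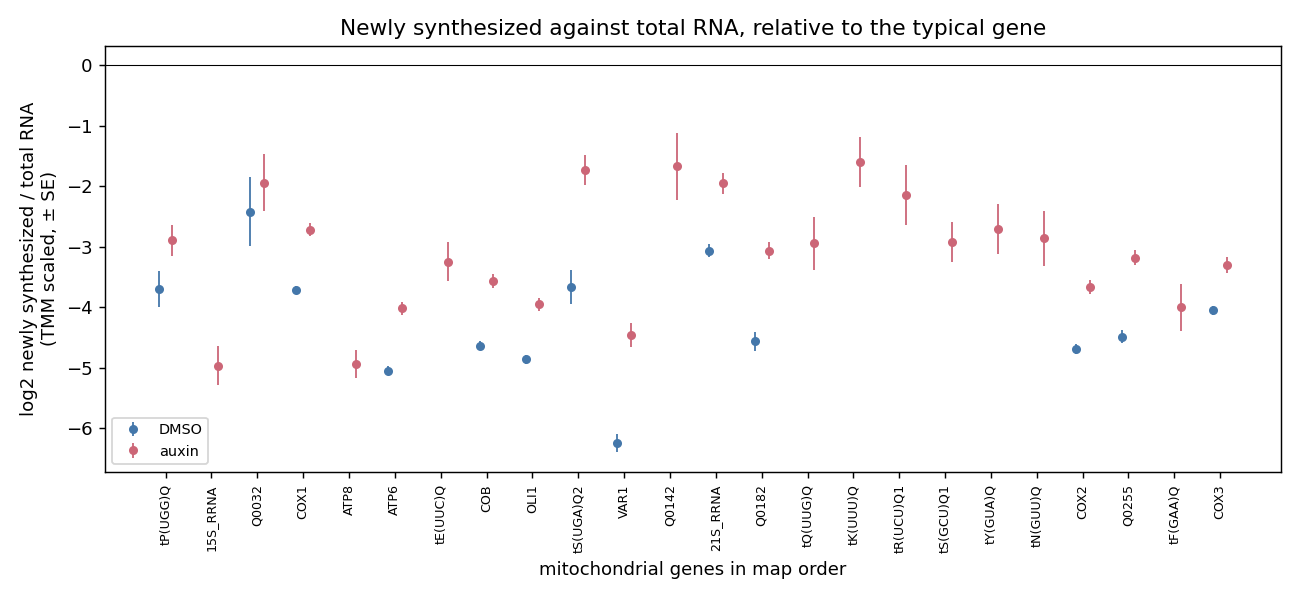
Log2 ratio of nsRNA to total RNA relative to the typical gene (y axis, TMM scaled, bars ± 1 SE) for the mitochondrial genes with at least 10 nsRNA counts over the group (x axis, map order), in DMSO (blue, 13 genes) and auxin (red, 24 genes). All drawn values lie below 0, and for each gene drawn in both treatments the auxin value is the higher one. Some of the drawn genes passed the filter only through their total RNA counts.

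The nuclear genes for mitochondrial gene expression fell with most other nuclear genes. Of a list of 37 such genes, 15 could be matched to the tables, and 15 of 15 were lower after auxin in nsRNA, with a median log2 change of -4.12 and a range of -4.67 to -3.33, beside 97.6% of all tested genes. In total RNA 15 of 15 were lower, with a median of -2.99 and a range of -3.58 to -1.29, beside 90.3% of all tested genes. RPO41 (YFL036W), the mitochondrial RNA polymerase, changed by -3.33 ± 0.37 in nsRNA and -1.98 ± 0.26 in total RNA. MTF1 (YMR228W), its initiation factor, changed by -4.42 ± 0.36 and -3.09 ± 0.30, and ABF2 (YMR072W), which packages mitochondrial DNA, by -4.12 ± 0.37 and -1.29 ± 0.26. SUV3 and DSS1, the helicase and the nuclease of the mitochondrial RNA degrading complex, fell by 2.99 ± 0.27 and 3.17 ± 0.27 in total RNA. The proteins themselves were not measured. SCR1 and RPR1, which like the mitochondrial genes are not made by RNA polymerase II, did not pass the test, at -0.55 ± 0.33 and 0.09 ± 0.34 in nsRNA and -0.21 ± 0.17 and 0.31 ± 0.22 in total RNA.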

How the data were processed

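RNA of 8 libraries was analysed. The deposited columns headed as raw, per the file headers, hold whole-number counts for each gene and were used as they stand. In the authors' normalized signal each count has been divided by a constant of its library; these factors were read from that quotient, and their basis was not given in the sources used here. The genome build was sacCer3 and base calling used bcl2fastq 2.17.1.14, per the submitters' processing notes. The counting rule, its use of strand, and S. pombe counts were not analysed here.

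Members and lists were chosen with earlier results of these data known. Tests used the quasi-likelihood method of edgeR 4.0.16 in R 4.3.3 on all listed genes, with library sizes set in proportion to those factors, filterByExpr with a minimum count of 10, and Benjamini-Hochberg adjusted p under 0.05; nsRNA against total RNA used TMM scaling. The SE is the absolute log2 change divided by the square root of the F statistic, not a fitted SE. Named members were the mRNAs, rRNAs, Q0285, every member past the threshold, and the 3 with the highest means among tRNAs and among frames. Nuclear genes were matched by deposited symbol (12 genes) or, with the descriptions, 15 genes in all. Counts were simulated at a dispersion of 0.03, with 200 changed genes drawn from those above a minimum mean count. Recovery was 64.0% of log2 changes of 1 and 100% of 2 in nsRNA (5742 genes). It was 64.0% and 99% in total RNA (5441 genes) and 41% and 95% in the interaction (5682 genes). Of the calls, 6.29%, 5.23% and 7.48% fell on unchanged genes. In the data most genes changed, so these rates hold for the simulated setting only. DESeq2 1.42.0, other scalings and filters, a replicate block, 1 fit of all 8 libraries and each library left out were alternatives. Replicates are called biological in the series' text. Deviations of same-numbered libraries were compared by Pearson r over genes. It was -0.06 between treatments in nsRNA and 0.06 in total RNA, and between RNA kinds 0.02 in DMSO and 0.10 in auxin. Over 9 members in nsRNA it was -0.72. Numbers were therefore not used as pairs. A correlation over genes cannot show a shift shared by all genes of a library, so pairing was not excluded. In total RNA COX1, COX2, COX3, COB, ATP6, ATP8, OLI1 and VAR1 were each higher in replicate 2 than in replicate 1 under both treatments. In nsRNA COX1 was higher in replicate 1 under DMSO and in replicate 2 under auxin. Sequences of these genes were not used here.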

Additional observations from a re-analysis of the deposited data

Results flagged for a closer look

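The changes of 2 members after auxin differed between nsRNA and total RNA by the interaction test of edgeR. ATP8 had the difference of 3.37 on the log2 scale, higher in nsRNA. Its raw nsRNA counts were 0 and 1 under DMSO and 5 and 22 under auxin. It did not pass the filter in nsRNA alone and entered this test through its total RNA counts, so the call carries no weight. COX3 had the difference of -0.89, lower in nsRNA, with nsRNA scaled counts of 1574 and 1578 under DMSO and 1173 and 991 under auxin, and total RNA scaled counts of 7424 and 9704 under DMSO and 9924 and 11943 under auxin. The part of depth, or of any single library, in either difference was not tested beyond leaving each library out.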

How the results depend on the processing

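The scaling decides the sign of most small changes. With TMM scaling, calls in nsRNA went to 0 lower and 19 higher, in total RNA to 45 higher, and in the interaction to 0 lower and 18 higher. The nsRNA changes then turned positive: 3.79 for tP(UGG)Q, 3.76 for COX1, 3.84 for ATP6, 3.78 for COB, 3.34 for OLI1, 3.12 for 21S_RRNA, 3.57 for COX2 and 3.48 for COX3. In total RNA 15S_RRNA went to 2.08 and 21S_RRNA to 1.76. The interaction went to 1.22 for COX1, 1.25 for ATP6, 1.29 for COB, 1.13 for OLI1, 1.32 for 21S_RRNA, 1.26 for COX2 and 0.98 for COX3. The summed nsRNA difference was 3.63 with TMM and 0.19 against SCR1.

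The replicate block pairs same-numbered libraries, which the correlations over genes did not bear out but could not exclude. It gave 4 lower in nsRNA (OLI1, 21S_RRNA, COX2 and COX3), 2 lower and 21 higher in total RNA, and 6 lower in the interaction. Without a filter 2 were higher in nsRNA (ATP8 and tS(GCU)Q1, 42 tested) and 2 in the interaction. A mean count of at least 50 left 3 higher in total RNA, with fewer genes tested. DESeq2 gave 3 lower in the interaction. It called 5 higher in total RNA, namely COX1, AI4, ATP6, Q0255 and tF(GAA)Q. The fit of all 8 libraries gave 2 higher in nsRNA, again ATP8 and tS(GCU)Q1. The cause of these shifts was not tested.

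Leaving out 1 library at a time gave 1 to 2 lower and 0 to 6 higher in nsRNA, 0 to 1 lower and 1 to 9 higher in total RNA, and 0 to 8 lower and 0 to 2 higher in the interaction, with the lone library of a group assumed to vary like the others. Values that crossed 0 ran in nsRNA from -1.53 to 1.39 for tP(UGG)Q, -0.54 to 0.066 for COX1, -0.40 to 0.076 for ATP6, -0.63 to 0.13 for COB, -0.62 to 1.503 for tS(UGA)Q2, -0.77 to 1.39 for VAR1 and -0.29 to 0.62 for Q0255. In total RNA they ran from -0.27 to 0.18 for 15S_RRNA, -0.018 to 0.39 for Q0050, -0.000996 to 0.41 for Q0055, -0.027 to 0.30 for ATP8, -0.13 to 0.25 for OLI1, -0.32 to 0.48 for VAR1 and -0.80 to 0.011 for 21S_RRNA. In the interaction they ran from -0.56 to 1.34 for 15S_RRNA and -0.90 to 1.26 for VAR1. In nsRNA against total RNA, 0 members were called higher in the settings run, and not all tested members were called lower in 8 of them, for example 38 of 41 in DMSO and 36 of 42 in auxin without a filter. Small counts limit ATP8, 15S_RRNA, Q0285 and most tRNAs in nsRNA. ATP8 had 0 and 1 in the DMSO libraries and 5 and 22 in the auxin libraries, whose sums over the listed genes were smaller. Within each treatment the library with the larger sum, replicate 2, had the larger count. Raw SCR1 counts in nsRNA were 59309 and 63373 under DMSO and 81299 and 92678 under auxin. Sequencing depth with the S. pombe reads was not analysed here, so its part between treatments was not tested.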
